A study of Mus musculus with 4 samples.

Results

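The chemokine ligand genes were taken as all genes whose symbol begins with Ccl, Cxcl, Xcl or Cx3cl followed by a digit. The rule found 44 of the 32289 genes in the deposited gene list, under 38 symbols: 30 of the CC subfamily, 12 of the CXC subfamily, 1 of the C subfamily and 1 of the CX3C subfamily. By position, 12 lie on chromosome 11, 10 on chromosome 5, 5 on chromosome 4, 4 on chromosome 8, 2 each on chromosomes 1 and 13, and 1 each on chromosomes 6 and 7, and the other 7 lie on unplaced scaffolds. Single-cell RNA was measured in 4 libraries of mouse lung tumours, 1 library per group. All 4 libraries share the labelled genotype: frt-flanked p53 (p53frt), a CreERT2 at Rosa26 that Flp recombinase switches on (Rosa-FSF-CreERT2), and floxed Hnf4a (Hnf4aflox), an endoderm transcription factor gene that tamoxifen is meant to delete. Tumours were started by intubation of adenovirus carrying FlpO under the mSPC promoter, which is active in alveolar type 2 cells, so that recombination was meant for that cell type. Animals received vehicle or tamoxifen at week 10 and tumours were collected 2 weeks later. The vehicle is given as ethanol in one label and as corn oil in another. From each treatment, 1 library was made before and 1 after magnetic removal of cells bearing CD45 (leukocytes) or CD31 (endothelium), so the 2 libraries of a treatment are portions of 1 suspension and do not replicate each other. The number of animals behind each suspension and their age are not given in the sources used here. The treatment comparison asks whether the ligand genes differ in level or in source between the tumours labelled tamoxifen and those labelled vehicle.

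Chemokines are small secreted proteins that draw leukocytes along concentration gradients through G protein-coupled receptors. The subfamilies are named for the spacing of their first cysteines: CXC ligands with an ELR motif, such as Cxcl1, Cxcl2, Cxcl3 and Cxcl5, act on Cxcr2 of neutrophils, Cxcl9 and Cxcl10 on Cxcr3 of activated T cells, and CC ligands such as Ccl2 and Ccl7 on Ccr2 of monocytes. In the lung, Cxcl15 (lungkine) is a product of airway and alveolar epithelium, and Ccl6 is abundant in macrophages.

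The bases before 5 start sites are shown because these genes lead or divide the source map described further on: Cxcl15 led in epithelial cells, Cxcl2 and Cxcl3 in neutrophils, Cxcl1 and Cxcl14 in fibroblasts. The first 4 lie near each other on the + strand of chromosome 5, where the members Cxcl5, Cxcl3, Cxcl15, Cxcl1 and Cxcl2 lie in this order within 146.578 kb. Genes that the rule does not match were left out of this order and may lie between them. Cxcl15 begins 4.934 kb after the end of Cxcl3 and ends 88.174 kb before Cxcl1, which is followed after 10.756 kb by Cxcl2. Each run is 250 bases upstream of the RefSeq start, 5′ to 3′ on the gene's strand, in build GRCm38.p6. Capitals mark 3 motifs that were searched on both strands: a κB-type motif (GGGA, 2 bases of any kind, TTCC), an interferon-response type motif (GAAA, 2 bases of any kind, GAAA) and a TATA box (TATAAA). Each κB-type stretch printed holds 2 matches, 1 on each strand, that overlap by all but 1 base.
Cxcl15, chr5:90794284-90794533, +: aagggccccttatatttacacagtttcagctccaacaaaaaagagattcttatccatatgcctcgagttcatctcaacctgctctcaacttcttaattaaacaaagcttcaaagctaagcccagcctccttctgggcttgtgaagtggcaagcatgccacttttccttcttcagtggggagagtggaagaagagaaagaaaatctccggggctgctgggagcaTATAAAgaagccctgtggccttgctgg
Cxcl3, chr5:90785851-90786100, +: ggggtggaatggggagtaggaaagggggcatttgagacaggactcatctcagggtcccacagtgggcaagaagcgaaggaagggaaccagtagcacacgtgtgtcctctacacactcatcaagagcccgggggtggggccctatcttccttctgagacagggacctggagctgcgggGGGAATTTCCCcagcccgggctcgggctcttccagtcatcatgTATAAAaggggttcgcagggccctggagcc
Cxcl1, chr5:90890995-90891244, +: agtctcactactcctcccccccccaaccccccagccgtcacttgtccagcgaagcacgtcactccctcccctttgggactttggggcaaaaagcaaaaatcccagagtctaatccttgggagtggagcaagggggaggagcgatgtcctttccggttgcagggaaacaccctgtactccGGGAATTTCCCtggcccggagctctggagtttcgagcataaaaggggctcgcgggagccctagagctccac
Cxcl2, chr5:90903649-90903898, +: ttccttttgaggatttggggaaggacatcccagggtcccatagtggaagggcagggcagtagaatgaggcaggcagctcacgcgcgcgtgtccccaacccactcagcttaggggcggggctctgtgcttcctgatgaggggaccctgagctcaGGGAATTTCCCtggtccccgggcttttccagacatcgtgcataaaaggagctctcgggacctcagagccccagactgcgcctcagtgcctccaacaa
Cxcl14, chr13:56296552-56296801, −: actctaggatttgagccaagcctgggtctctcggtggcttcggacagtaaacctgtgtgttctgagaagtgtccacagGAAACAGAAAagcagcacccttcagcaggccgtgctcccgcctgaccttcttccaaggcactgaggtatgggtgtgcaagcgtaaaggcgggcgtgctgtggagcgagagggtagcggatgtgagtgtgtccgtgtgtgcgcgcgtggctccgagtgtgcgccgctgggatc
Cxcl3, Cxcl1 and Cxcl2 carry the κB-type motif at 62, 60 and 86 bases before the start, and the run of Cxcl15, which lies between Cxcl3 and Cxcl1, holds none in this window. A TATAAA lies 21 bases before the start of Cxcl15 and 24 before that of Cxcl3, and the interferon-response type motif lies 162 bases before the start of Cxcl14. RefSeq held 34 start sites under 28 symbols that fit the rule, of which 27 are in the deposited gene list. The other, Ccl21d, is not in that list, and its window held none of the 3 motifs. The κB-type motif was in 5 of these 34 (14.7%, against 1.21% of 32851 windows of the same length over all genes): Cxcl1, Cxcl2, Cxcl3, Cxcl10 and Ccl1. The interferon-response type motif was in 3 of 34 (8.82%, against 2.98%), those of Ccl19, Cxcl10 and Cxcl14, and TATAAA in 10 of 34 (29.4%, against 12.4%). A match is a run of letters and not a measured binding site.

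Between 6558 and 7867 barcodes were deposited per library, and 6111 to 7358 were kept, with a median of 9302 and 9894 UMIs (unique molecules) per cell before depletion and 17733 and 16484.5 after it. Pairs of libraries shared 9 to 17 barcodes, at most 0.246% of a library. Cells were clustered without the chemokine ligand and receptor genes, and clusters were named from marker genes, so each class is called by its markers (neutrophil-like and so on). Before depletion, the vehicle library and the library labelled tamoxifen held 1026 and 1014 epithelial-like cells, 1468 and 1960 alveolar macrophage-like cells, 1091 and 742 monocyte- or macrophage-like cells and 1146 and 688 T cell-like cells, while after depletion 6528 and 7092 cells were epithelial-like. Another 368 and 327 cells before depletion lay in clusters with markers of several classes and were left out of the classes. Hnf4a goes against the labels: its level in epithelial-like cells was 53.6 and 55.0 CPM (a gene's UMIs scaled by the usual CPM total over all UMIs of the class in a library) in the vehicle libraries before and after depletion and 85.6 and 83.0 CPM in the libraries labelled tamoxifen. Counts at the 3′ end may lie outside the deleted part of the gene and then do not check the deletion. Whether the treatment labels are exchanged was not tested, and if they are, the direction of every treatment comparison given here is turned. The name "library labelled tamoxifen" is therefore used throughout, and "vehicle" likewise stands only for what the label says. With 1 library per group nothing is tested. Intervals after a CPM value are exact 95% Poisson intervals of the summed UMIs. All intervals cover counting error only, not the spread between cells or animals. Since UMIs are counted at 3′ ends, CPM was not divided by gene length.

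A source was mapped for 32 of the 44 genes, those with at least 10 CPM and 10 UMIs in a named class of 50 or more cells before depletion. Myeloid classes led 16 of them in the vehicle library and 14 in the library labelled tamoxifen. Fibroblast- and endothelial-like cells led 8 and 9, NK cell-like cells 5 and 5, and epithelial-like cells 3 and 4. The leading class was the same in both libraries for 26 of the 32. Of the subfamilies, all 12 CXC genes, 18 of 30 CC genes and the single C and CX3C genes had a source.

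**Figure D1:**
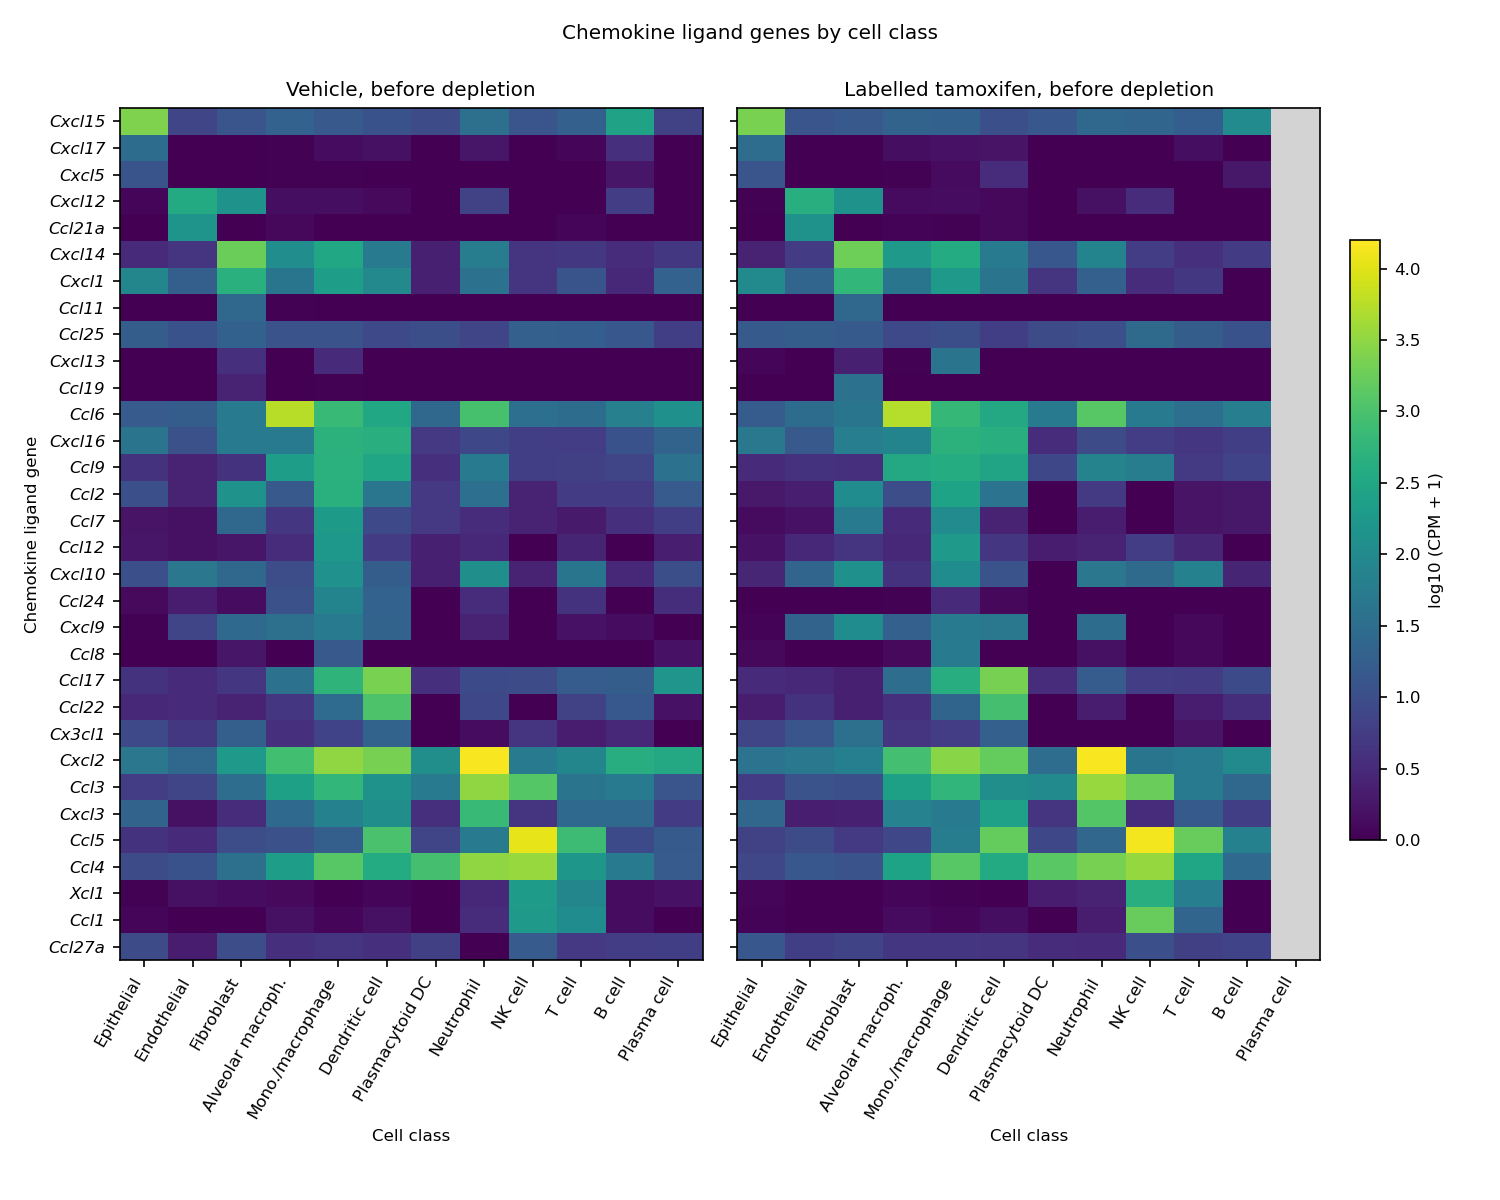
Level of each chemokine ligand gene with a source (rows) in each cell class (columns), as log10 of (CPM + 1), in the vehicle library and in the library labelled tamoxifen, both before depletion. Class names are marker-based, and a grey column has under 50 cells. Cxcl15 stands out in the epithelial column, Ccl6 in alveolar macrophages, Cxcl2 in neutrophils, Ccl5 in NK cells, Ccl17 and Ccl22 in dendritic cells and Cxcl14 in fibroblasts, in both panels.

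Epithelial-like cells were the main source of Cxcl15, Cxcl17 and Cxcl5. Cxcl15 was their most abundant chemokine, at 2459 CPM (2441 to 2477) with vehicle before depletion, 2490 CPM (2481 to 2498) with vehicle after it, and at 2256 CPM (2239 to 2272) and 2307 CPM (2299 to 2315) in those labelled tamoxifen. They held 91.4% and 89.4% of the Cxcl15 UMIs of the libraries before depletion. The 4 levels lie within a narrow range, and both vehicle libraries lie above both labelled tamoxifen. After thinning each cell to 2000 UMIs, 74.4% (71.5 to 77.1, exact binomial) of epithelial-like cells in the vehicle library and 68.7% (65.8 to 71.6) in the library labelled tamoxifen had a Cxcl15 UMI, against 87.6% and 87.7% without thinning. In T cell-like cells, which should lack the gene, the thinned share was 4.17% and 3.89%, with a median of 5785.5 and 5902 UMIs per cell against 24335 and 28481.5 in epithelial-like cells. B cell-like cells had the next highest level of Cxcl15, at 260 and 103 CPM.

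Cxcl17, a mucosal chemokine that draws myeloid cells, was at 29.4 CPM (27.4 to 31.4) and 30.5 CPM (28.6 to 32.5) in epithelial-like cells before depletion, which was 89.3% and 82.5% of its UMIs. After depletion it was at 37.3 and 32.1 CPM in the vehicle library and the library labelled tamoxifen. Cxcl5, a neutrophil attractant, was at 11.4 CPM (10.2 to 12.7) and 11.7 CPM (10.6 to 13) before depletion, with 83.5% and 81.9% of its UMIs in these cells, and at 20.2 and 24.9 CPM after it. Both genes were thus low next to Cxcl15 but had few other sources. Epithelial-like cells also held Cxcl1 (82.7 and 128 CPM in the vehicle libraries before and after depletion, 102 and 125 CPM in those labelled tamoxifen), Cxcl16 (39.6, 41.6, 47.6 and 49.9 CPM in that order) and Cxcl2 (44.4, 32.0, 38.3 and 31.5 CPM). For these genes other classes had higher levels. Ccl27a, an epithelial chemokine best known from skin, was at 8.31, 8.81, 12.7 and 12.5 CPM.

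Within the epithelium, Cxcl15 was highest in type 2-like cells and Cxcl3 and Cxcl5 in transitional-like cells. Among the epithelial clusters, 14 had 100 or more cells in the vehicle library after depletion and 16 had in the library labelled tamoxifen. Across these, 10 members spanned at least 4-fold in both libraries. Cxcl15 was highest in cluster E3, which has the markers of Lyz1-high type 2 cells (1610 and 1144 cells), at 5637 CPM with vehicle and 6037 CPM in the library labelled tamoxifen. It was lowest in cluster E7, a transitional-like cluster led by Spp1, Vim, Igfbp4, Hmga2 and Inhba (127 and 108 cells), at 120 and 187 CPM. The highest and lowest clusters thus differed 47.1-fold with vehicle and 32.3-fold in the library labelled tamoxifen. Cxcl17 was also high in E3, at 96.9 and 103 CPM. It was highest, at 159 CPM in the library labelled tamoxifen, in E21, a cluster of 127 cells led by the mast cell protease genes Mcpt2 and Mcpt1 (168 CPM in 93 vehicle cells).

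Cxcl3 and Cxcl5 were highest in clusters where Cxcl15 was low. In E7, Cxcl5 was at 112 and 86.9 CPM, the highest of the clusters in both libraries, and Cxcl3 at 335 and 52.6 CPM. In E1, a larger transitional-like cluster led by Spp1, Hmga2 and Cacnb2 (1115 and 762 cells), Cxcl3 was at 79.1 and 77.7 CPM and Cxcl5 at 54.2 and 74.4 CPM. In E3, Cxcl3 was at 5.11 and 3.87 CPM and Cxcl5 at 1.06 and 0.729 CPM. Cxcl16, a membrane-bound ligand of Cxcr6, was highest in E9, a type 1-like cluster led by Ndnf, Rtkn2 and Clic5 (175 and 117 cells), at 219 and 218 CPM, followed by E7 at 120 and 109 CPM. Cxcl1 was highest in clusters that 1 treatment filled almost alone: at 544 CPM in E17, which has Dlk1-Meg3 markers (145 vehicle cells and 5 of the library labelled tamoxifen), and at 246 CPM in E20, which has airway secretory markers (351 cells of the library labelled tamoxifen and 11 vehicle cells). E17 also held Cxcl2 at 256 CPM and Ccl20, a ligand of Ccr6, at 47.7 CPM. A cluster that is nearly all of 1 library cannot be told apart from that library. Cluster E15 (47 and 52 cells), with Lyz1-high type 2 markers and led in part by the interferon-induced genes Iigp1 and Gbp2, held Cxcl10 at 155 CPM and Cxcl15 at 5887 CPM in the library labelled tamoxifen.

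**Figure D2:**
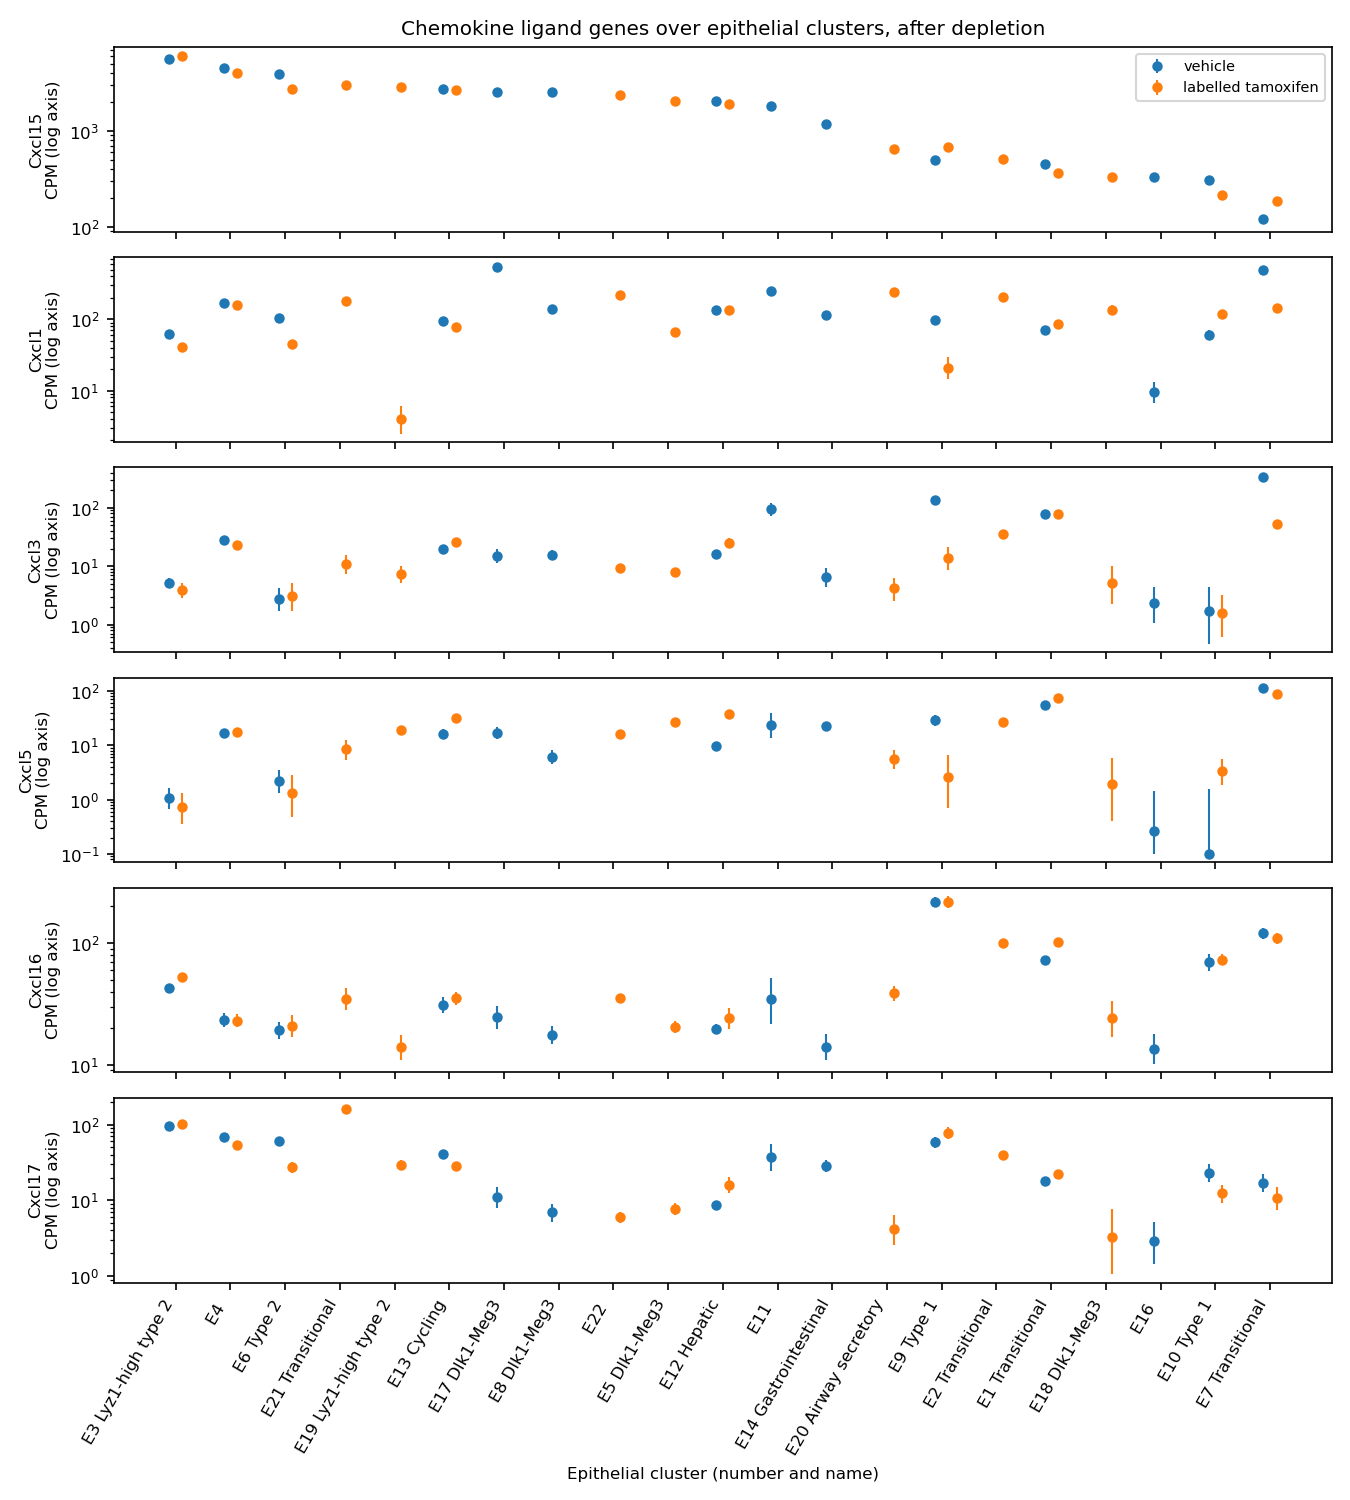
Level (CPM, log axis) of Cxcl15, Cxcl1, Cxcl3, Cxcl5, Cxcl16 and Cxcl17 in each epithelial cluster with 100 or more cells in that library after depletion, with exact 95% Poisson intervals. Clusters are ordered by Cxcl15, colours mark the vehicle library and the library labelled tamoxifen, and a CPM of 0 is drawn at 0.1. Cxcl15 is highest in E3 and lowest in E7, while Cxcl5 is highest in E7 in both libraries.

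Neutrophil-like cells were the leading source of the ELR ligands Cxcl2 and Cxcl3 and of Ccl3, a ligand of Ccr1. Cxcl2 was at 14315 CPM (14167 to 14465) in the vehicle library and 14655 CPM (14483 to 14829) in the library labelled tamoxifen, the highest level of any member in any whole class. After thinning, 88.6% and 92.4% of neutrophil-like cells had a Cxcl2 UMI, against 9.42% and 9.50% of T cell-like cells, with a median of 3421 and 3622 UMIs per neutrophil-like cell and 5785.5 and 5902 per T cell-like cell. Cxcl2 was also found in monocyte- or macrophage-like cells (3191 and 2790 CPM), which held more of its UMIs than any other class (43.4% and 37.2%), and in dendritic cell-like cells (2194 and 1591 CPM). In monocyte- or macrophage-like cells Cxcl2 was at 22.3% and 19% of its neutrophil level, while the median of the 7 neutrophil markers there was 0.135% and 0.119% of theirs and the highest was 1.48% and 2.02%. Cxcl3 was at 675 CPM (643 to 708) and 1209 CPM (1160 to 1260) in neutrophil-like cells, and next highest in dendritic cell-like cells. Ccl3 was at 3130 CPM (3060 to 3200) and 3551 CPM (3466 to 3637), and Ccl4, its close relative, at 3141 and 2207 CPM. Ccl6 followed at 933 and 1286 CPM.

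Alveolar macrophage-like cells led 1 member, Ccl6. Its level was 5708 CPM (5668 to 5749) with vehicle and 5483 CPM (5449 to 5517) in the library labelled tamoxifen, with 69.1% and 78.8% of its UMIs in these cells. After thinning, 99.0% and 98.6% of the cells had a Ccl6 UMI, against 5.43% and 7.17% of T cell-like cells, which should lack it. The median depth was 8427.5 and 8767.5 UMIs per alveolar macrophage-like cell against 5785.5 and 5902 per T cell-like cell. The next member was Cxcl2 at 840 and 894 CPM, followed by Ccl3 at 238 and 239 CPM and Ccl9, another ligand of Ccr1, at 220 and 339 CPM.

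Monocyte- or macrophage-like cells led the most members, 9 with vehicle and 8 in the library labelled tamoxifen, among them the ligands of Ccr2. Ccl2 was at 470 CPM (461 to 480) and 269 CPM (260 to 278), with 83.5% and 79.3% of its UMIs in this class. Ccl7 was at 193 and 106 CPM and Ccl12 at 174 and 185 CPM, with 90.8% and 83.7% and with 94.8% and 90.0% of their UMIs in the class. The 3 ligands divided within the class: Ccl12 was at 375 and 319 CPM in C1q macrophage-like cells and 15.3 and 21.6 CPM in classical monocyte-like cells (124 and 54 cells), while Ccl2 was at 510 and 322 CPM in the former and 1109 and 460 CPM in the latter. The classical monocyte-like cells pooled a sub-cluster led by Plac8, Ly6c2 and F13a1 (56 and 50 cells) with one led by Saa3, Arg1 and Slpi (68 and 4 cells). In the sub-cluster led by Plac8, Ccl2 was at 244 and 183 CPM, under its level in C1q macrophage-like cells. The most abundant members of the class were Cxcl2, given above, Ccl4 at 1271 and 1270 CPM and Ccl6 at 702 and 623 CPM. Cxcl16 (491 and 497 CPM), Ccl9 (478 and 395 CPM) and, with vehicle, Cxcl9 (52.0 CPM) and Cxcl10 (131 CPM), the interferon-induced ligands of Cxcr3, were also led by the class. Cxcl9 and Cxcl10 stood at 53.9 and 109 CPM there in the library labelled tamoxifen, where fibroblast-like cells had more (110 and 128 CPM). In that library 67.5% of the Cxcl9 UMIs of fibroblast-like cells came from 1 cell.

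Dendritic cell-like cells were the leading source of Ccl17 and Ccl22, the ligands of Ccr4. Ccl17 was at 2261 CPM (2227 to 2294) and 2145 CPM (2103 to 2187), and Ccl22 at 1046 CPM (1023 to 1069) and 915 CPM (888 to 943). The pair differed between sub-classes: Ccl22 was at 4546 and 3106 CPM in mature dendritic cell-like cells (91 and 72 cells) but 83.3 and 55.0 CPM in Cd209a dendritic cell-like cells (109 and 65 cells), whereas Ccl17 was at 2743 and 3084 CPM in the former and 1675 and 1663 CPM in the latter. Cxcl2 and Ccl5 were the other abundant members of the class, Ccl5 at 992 and 1638 CPM, and at 4587 and 5724 CPM in mature dendritic cell-like cells. Of the 7612 Ccl5 UMIs in the class with vehicle, 1623 were in 1 cell. Plasmacytoid dendritic cell-like cells (65 and 67 cells) held mainly Ccl4, at 931 and 1329 CPM, with Ccl3 at 55.7 and 98.9 CPM and Cxcl2 at 118 and 30.6 CPM.

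NK cell-like cells (133 and 93 cells) led Ccl5, Ccl4, Xcl1 and Ccl1 in both libraries. Ccl5, a ligand of Ccr1 and Ccr3, was at 11047 CPM (10783 to 11316) with vehicle and 13597 CPM (13242 to 13960) in the library labelled tamoxifen. After thinning 94.2% and 94.8% of the cells had a Ccl5 UMI. Ccl4 was at 3620 CPM (3470 to 3776) and 3425 CPM (3248 to 3609), and Ccl3 at 1215 CPM (1129 to 1306) and 1750 CPM (1624 to 1884). Xcl1, the ligand of Xcr1 on cross-presenting dendritic cells, was at 204 and 424 CPM, but T cell-like cells, at 84.0 and 62.4 CPM, held 80.3% and 59.3% of its UMIs. In T cell-like cells Ccl5 led, at 751 and 1698 CPM, followed by Ccl4 at 164 and 290 CPM. It was carried mainly by CD8 T cell-like cells, at 1980 and 3595 CPM, where 48.4% and 56.9% of thinned cells had a UMI, against 9.45% and 11.9% of CD4 T cell-like cells and 1.22% and 1.57% of B cell-like cells, which should lack it. B cell-like cells held mainly Cxcl2 (405 and 99.2 CPM) and Cxcl15, with Ccl6 at 66.1 and 62.4 CPM. Their Cxcl15 was 10.6% and 4.59% of the epithelial level, where the median of the epithelial markers was 5.77% and 7.12%. Cxcl2 in B cell-like cells was 2.83% and 0.677% of its neutrophil level, where the median of the neutrophil markers was 2.93% and 0.620%. Ccl6 was 1.16% and 1.14% of its alveolar macrophage level, where the median of the alveolar macrophage markers was 1.19% and 1.14%. How much of these levels is carry-over was not tested. In the 50 plasma cell-like cells of the vehicle library Cxcl2 (344 CPM), Ccl17 (153 CPM, 240 of 246 UMIs in 1 cell) and Ccl6 (126 CPM) were highest.

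Fibroblast-like cells led Cxcl14, a chemokine of stroma and epithelium, and Cxcl1. By sub-cluster markers, 88 and 48 cells of this class before depletion were fibroblast-like. Another 17 and 16 lay in a sub-cluster with mural markers, led by Rgs5, Postn and Higd1b. The remaining 2 and 8 lay in an unnamed sub-cluster led by Acta2, Tagln and Tpm2. Levels given here are of the whole class. Cxcl14 was at 1790 CPM (1738 to 1843) and 1413 CPM (1360 to 1468) before and after depletion with vehicle, and at 1851 CPM (1782 to 1923) and 1253 CPM (1189 to 1320) in the libraries labelled tamoxifen. The 107 and 72 fibroblast-like cells before depletion nevertheless held only 31.3% and 21.3% of the Cxcl14 UMIs, since monocyte- or macrophage-like cells, at 324 and 383 CPM, held 43.9% and 39.0%. That is 18.1% and 20.7% of the fibroblast level, where the median of the fibroblast markers is 0.037% and 0.065% of theirs. Cxcl1 was at 460 CPM (434 to 487) and 870 CPM (828 to 913) before and after depletion with vehicle, and at 603 CPM (564 to 644) and 559 CPM (516 to 604) in the libraries labelled tamoxifen. Ccl2 in these cells was at 140, 531, 108 and 171 CPM in the same order, with 20.3% to 50% of its UMIs in 1 cell. Ccl11 (eotaxin, a ligand of Ccr3) was nearly confined to this class before depletion, with 98.4% and 100% of its UMIs, at 24.4 and 25.4 CPM, though 46 of its 61 vehicle UMIs were in 1 cell. Ccl19, a ligand of Ccr7, had 4 UMIs before and 0 after depletion with vehicle, where 0 allows up to 1.58 CPM, and 52 and 58 UMIs (35.7 and 50.6 CPM) in the libraries labelled tamoxifen, 30 and 32 of them in 1 cell.

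Endothelial-like cells led Cxcl12, the ligand of Cxcr4, and Ccl21a, the ligand of Ccr7 made by lymphatic endothelium. Cxcl12 was at 367 CPM (340 to 396) and 365 CPM (334 to 397) before and after depletion with vehicle and at 422 CPM (390 to 455) and 434 CPM (391 to 481) in the libraries labelled tamoxifen. The 4 levels differ little, and the intervals of the treatments overlap. Fibroblast-like cells had Cxcl12 at 145 and 143 CPM before depletion. Ccl21a was at 150 and 145 CPM before depletion, but its UMIs came from 3 cells and 1 cell. After depletion it had 0 UMIs in the class, which allows up to 2.11 CPM with vehicle and 3.49 CPM in the library labelled tamoxifen. Other members were low before depletion: Cxcl10 was at 45.0 and 22.1 CPM (59 of 81 vehicle UMIs in 1 cell), Cxcl2 at 25.5 and 46.2 CPM and Cxcl1 at 17.8 and 22.1 CPM.

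Between treatments, no member was apart in epithelial-like cells. A gene was compared where it reached 10 CPM and 10 UMIs in either library, and was called apart where the levels, each plus 1 CPM, differed at least 2-fold. None of 10 members was apart before depletion (1.97% of all genes compared), none of 9 after it (1.73%), and none of 9 in both the same way (1.31%). Cxcl15 was lower in the library labelled tamoxifen by a log2 ratio of -0.12 (-0.14 to -0.11) before and -0.11 (-0.12 to -0.10) after depletion. Cxcl16 was higher by 0.26 (0.16 to 0.38) and 0.26 (0.21 to 0.31), and Ccl27a by 0.56 (0.38 to 0.85) and 0.46 (0.40 to 0.61). These 3 differed the same way in both portions of the suspensions, by less than the 2-fold limit. Cxcl3 did not: its log2 ratio was 0.17 (0.02 to 0.33) before and -0.75 (-0.84 to -0.71) after depletion. The median over the members compared was 0.04 before and -0.04 after depletion, against -0.04 and 0.01 over all genes compared. Intervals of ratios are exact intervals of the plain ratio of CPM, with nothing added to the levels, so the log2 ratio of a low gene can lie outside its interval.

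Within some epithelial clusters, compared where both libraries had 100 or more cells, ELR ligands were apart after depletion. In the transitional-like cluster E7, 5 of 11 members were apart (4.17% of all genes): lower in the library labelled tamoxifen were Cxcl3 (52.6 against 335 CPM, log2 ratio -2.65, interval -2.91 to -2.44), Cxcl1 (146 against 491 CPM, -1.74, -1.89 to -1.60), Cxcl2 (28.6 against 80.4 CPM, -1.46) and Cxcl10, whose 65 vehicle UMIs lay in 1 cell but for 1. Ccl2 was higher in E7, with 51 UMIs against 1 (log2 ratio 3.68, interval 3.20 to 11.08). In the type 1-like cluster E9, 4 of 10 were apart (2.1%): Cxcl3 (13.8 against 135 CPM, -3.20, -4.00 to -2.65), Cxcl1 (21 against 98.6 CPM, -2.18) and Cxcl5 (2.62 against 28.7 CPM, -3.04) were lower and Ccl20 was higher (22.9 against 7.28 CPM, from 2 cells in each library). The lower genes in E9 also rested on few of its 117 and 175 cells. Cxcl3 was found in 7 against 18 cells, Cxcl1 in 21 against 37 and Cxcl5 in 3 against 8. With vehicle, 1 cell held 32.2% of the Cxcl3 UMIs and 1 held 44.8% of those of Cxcl5. In the type 2-like cluster E6, Cxcl1 (44.6 against 104 CPM), Cxcl17 (27.3 against 61.0 CPM) and Cx3cl1 (5.90 against 15.8 CPM) were lower, 3 of 8 (2.93%). In the hepatic-like cluster E12, led by Agr2, Ttr and Adgrl3 (973 and 109 cells), Cxcl5 was higher (38.3 against 9.71 CPM), 1 of 9 (3.52%). No member was apart in E3 before (0 of 7, 0.407%) or after depletion (0 of 6, 0.319%), in E1 (0 of 9, 1.97%), E4 (0 of 10, 1.17%), the type 1-like E10 (0 of 7, 3.86%) or the cycling cluster E13 (0 of 9, 1.75%). Of these 13 calls, 10 held without the cell with the most UMIs of the gene in each library, and Cxcl10 and Ccl2 in E7 and Ccl20 in E9 did not. Only Cxcl1 and Cxcl3 were apart in the same direction in both E7 and E9, and whether the clusters differ in this was not tested.

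**Figure D3:**
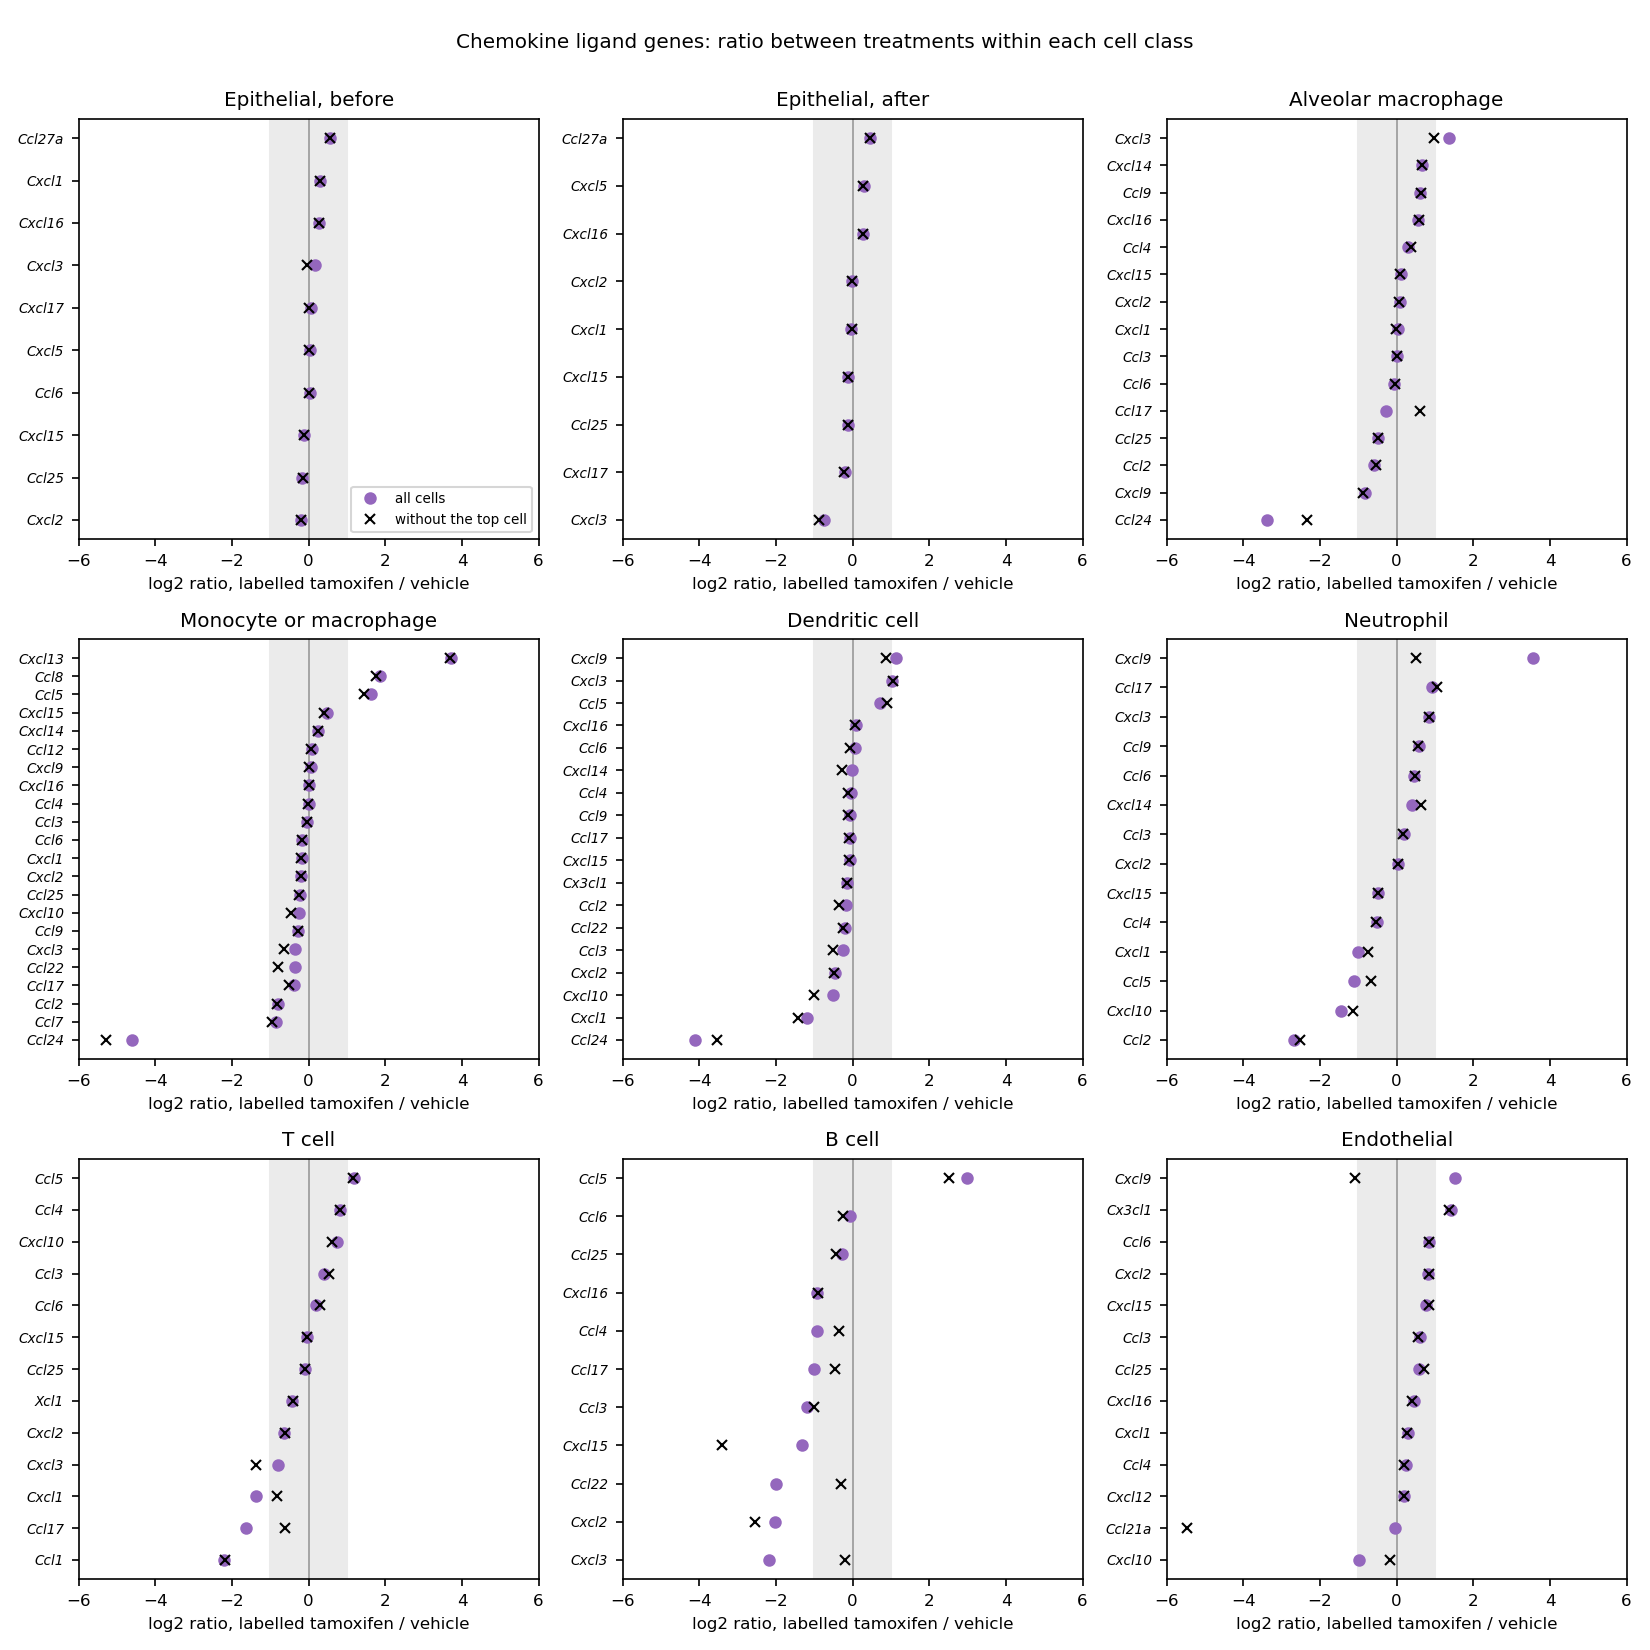
Log2 ratio of the level in the library labelled tamoxifen over the vehicle library for each member compared, by cell class (marker-based names; levels plus 1 CPM). Dots use all cells, crosses leave out the cell with the most UMIs of that gene in each library, and the grey band marks under 2-fold. In epithelial cells all members lie in the band before and after depletion, Ccl24 lies far to the left in the 3 myeloid classes where it was compared, and Ccl5 lies to the right in T cells.

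Other classes were compared before depletion where both libraries had 100 or more cells, and 28 member-class pairs were apart. Ccl24 (eotaxin-2, a ligand of Ccr3 on eosinophils) was lower in the library labelled tamoxifen in all 3 myeloid classes in which it was compared. In monocyte- or macrophage-like cells it was at 77.9 CPM (74.0 to 81.9, 1512 UMIs) with vehicle and 2.25 CPM (1.51 to 3.24, 29 UMIs) in the library labelled tamoxifen, a log2 ratio of -4.60 (-5.69 to -4.58). It had 1 UMI against 135 in alveolar macrophage-like cells (interval -12.87 to -5.05) and 1 against 153 in dendritic cell-like cells (interval -11.85 to -4.03). Of the 135 UMIs 81 were in 1 cell, and without it the vehicle level in alveolar macrophage-like cells was 4.02 CPM, under the minimum, so that this call was lost. The vehicle UMIs of monocyte- or macrophage-like cells came from 86 of 1091 cells, and thinning left a share of 4.82% (3.62 to 6.27) against 0.27% (0.03 to 0.98), where T cell-like cells of the vehicle library had 0.453% (0.147 to 1.05). Among the 9 sub-clusters of that class with 50 or more cells in both libraries, Ccl24 was lower in 7, but in 6 of the 9 neither library had more than 3 UMIs of it. The highest was a sub-cluster led by Nrg1, Arg1 and Thbs1 (196 and 87 cells), at 290 and 13 CPM, from 938 and 19 UMIs, and another of 118 and 69 cells had 79 UMIs and 0. A sub-cluster led by Saa3, Arg1 and Slpi, with 68 vehicle cells and 4 of the library labelled tamoxifen, held Ccl24 at 509 CPM, Ccl2 at 1796 CPM and Ccl7 at 993 CPM with vehicle. How far the sub-clusters' sizes account for the class levels was not tested.

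Of the 22 members compared in monocyte- or macrophage-like cells, 3 others were apart beside Ccl24 (4 of 22; 0.66% of all genes), all higher in the library labelled tamoxifen. Cxcl13, the B cell attractant that acts on Cxcr5, had 513 UMIs against 41 (39.9 against 2.11 CPM, log2 ratio 3.72, 3.78 to 4.74), but they came from 10 of 742 cells, with 327 in 1 cell. Ccl8, a relative of Ccl2, was at 52.1 against 13.6 CPM (1.86, 1.72 to 2.14), with 42.1% and 39.2% of its UMIs in 1 cell. Ccl5 was at 57.4 against 18.0 CPM (1.62, 1.48 to 1.86), and at 0.58 where cells needed 1000 genes. Ccl2 and Ccl7 stayed under the 2-fold limit in the class, although Ccl2 was lower in 8 of its 9 sub-clusters and Ccl7 lower or equal in 8. In C1q macrophage-like cells (416 and 368 cells), 4 of 20 were apart (0.714%): Cxcl13 (72.4 against 5.31 CPM), Ccl8 (79.2 against 19.5 CPM) and Cxcl3 (57.3 against 21.5 CPM) were higher and Cxcl9 (36.4 against 92.9 CPM) was lower. Without the top cell the log2 ratio of Ccl8 there went from 1.97 to 0.94 and that of Cxcl3 from 1.37 to 0.68, and neither was apart.

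In alveolar macrophage-like cells Cxcl3 was apart beside Ccl24 (2 of 15; 0.405% of all genes), at 70.5 against 26.8 CPM (log2 ratio 1.36, 1.23 to 1.57) and at 0.97 without the cell with the most UMIs. In dendritic cell-like cells 4 of 18 were apart (1.29%). Cxcl3 (250.5 against 122 CPM, 1.04) and Cxcl9 (46.2 against 20.6 CPM, 1.13) were higher and Cxcl1 (41.1 against 94.5 CPM, -1.18) was lower. Without the top cell Cxcl9 was at 0.87. Where cells needed 1000 genes and were clustered anew, these turned: Cxcl3 was at -0.26 in alveolar macrophage-like and -2.16 in dendritic cell-like cells, and in the latter Cxcl9 was at -0.48 and Cxcl1 at 0.47. That dendritic cell-like class did not hold the same cells, and no sub-cluster of it had Cd209a dendritic cell markers. A sub-cluster led by Cd209a (143 and 76 cells) lay instead among the monocyte- or macrophage-like cells. In the main clustering, a dendritic cell-like sub-cluster led by Asgr2, Epcam and Igflr1 held 119 vehicle cells and 30 of the library labelled tamoxifen. How far membership accounts for the turns was not tested. In neutrophil-like cells 5 of 14 were apart (4.15%). Cxcl10 (44.6 against 125 CPM, -1.46, -1.85 to -1.13), Ccl5 (23.4 against 51.7 CPM, -1.11), Ccl2 (4.25 against 32.7 CPM, -2.68) and Cxcl1 (18.1 against 37.2 CPM, -1.0) were lower. Cxcl9 was higher, but 52 of its 56 UMIs lay in 1 cell. Without the top cell Ccl5 was at -0.68, Cxcl1 at -0.75 and Cxcl9 at 0.50, none of them apart. The leading ligands of neutrophil-like cells, Cxcl2, Cxcl3 and Ccl3, were all under the limit. With a minimum of 1000 genes, or with no doublets removed, the log2 ratio of Ccl5 was 0.14 or 0.26.

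In T cell-like cells 4 of 13 were apart (1.33% of all genes), and Ccl5 was the only one higher in the library labelled tamoxifen. Its level there was 1698 CPM against 751 CPM, from 7643 and 6033 UMIs, a log2 ratio of 1.18 (1.13 to 1.23) and of 1.17 without the cell with the most UMIs. As a mean over the cells' own CPM the log2 ratio was 0.95, under the limit. The share of thinned cells with a Ccl5 UMI was 28.0% (24.6 to 31.7) against 19.1% (16.8 to 21.6). Ccl5 was higher in the library labelled tamoxifen in 7 of 7 T or NK cell-like sub-clusters with 50 or more cells in both libraries. Among them 3 CD4 T cell-like sub-clusters stood at 807 against 180 CPM, 629 against 144 CPM and 81.5 against 16.0 CPM, 2 CD8 T cell-like ones at 3281 against 2594 CPM and 3683 against 2561 CPM, the regulatory T cell-like one at 84.0 against 40.3 CPM and the NK cell-like one at 16113 against 12403 CPM. In CD4 T cell-like cells (552 and 311 cells) 3 of 10 were apart (1.97%), with Ccl5 at 500 against 115 CPM (2.11, 1.95 to 2.31). In CD8 T cell-like cells (290 and 235 cells), which carried most of it, the log2 ratio of Ccl5 was 0.86, under the limit. Regulatory T cell-like cells numbered 180 and 77. How far the sub-classes' sizes account for the level of Ccl5 in the whole class was not tested. Ccl1, the ligand of Ccr8 on regulatory T cells, was lower in T cell-like cells (22.7 against 108 CPM, -2.20), in the CD4 (7.81 against 36.1 CPM) and in the CD8 T cell-like cells (33.9 against 225 CPM; 1 of 10 apart, 2.98%). Of its 864 vehicle UMIs in T cell-like cells, 473 were in 1 cell, and with a minimum of 1000 genes the log2 ratio was 0.47. In the NK cell-like sub-cluster (158 and 114 cells) Ccl1 went the other way, at 1302 against 148 CPM, with Ccl9 and Cxcl10 (24 and 14 UMIs against 3 each) also higher (3 of 11, 8.27%). Nearly all of this Ccl1 came from a few cells: in the NK cell-like class 109 of 111 vehicle UMIs and 322 of 673 UMIs of the library labelled tamoxifen were in 1 cell. Ccl17 and Cxcl1 were lower in T cell-like cells, from 20 and 17 UMIs against 127 and 92, but without the top cell their log2 ratios went from -1.63 and -1.38 to -0.61 and -0.83 and neither was apart.

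In B cell-like cells 7 of 11 were apart, the highest share of any class (5.49% of all genes). Cxcl2 (99.2 against 405 CPM, log2 ratio -2.02, -2.32 to -1.75), Cxcl15 (103 against 260 CPM, -1.32), Ccl3 (23.9 against 55.9 CPM, -1.19), Cxcl3, Ccl22 and Ccl17 were lower. Without the top cell Cxcl3 was at -0.21, Ccl22 at -0.31 and Ccl17 at -0.47, none of them apart, while Cxcl15, with 104 of its 121 UMIs of the library labelled tamoxifen in 1 cell, moved from -1.32 to -3.40. Ccl5 was higher at 69.3 against 7.87 CPM, from 81 and 20 UMIs in 8 cells of the library labelled tamoxifen. Most of these genes are led by other classes, and epithelial markers in B cell-like cells stood at a median of 5.77% and 7.12% of their epithelial level with vehicle and in the library labelled tamoxifen. Neutrophil markers there stood at a median of 2.93% and 0.620% of their neutrophil level, in the same order. Cxcl2, led by neutrophil-like cells, was at 2.83% and 0.677% of its level in them. The part of such carry-over in the 7 calls was not tested. With no doublets removed the log2 ratio of Cxcl15 was 0.76 and that of Cxcl3 0.025. In endothelial-like cells 2 of 13 were apart (3.04%), Cxcl9 from 33 against 12 UMIs and Cx3cl1 from 19 against 7, both higher in the library labelled tamoxifen. Without the top cell the log2 ratio of Cxcl9 was -1.08. Of all 28 calls, 16 held without the cell with the most UMIs of the gene in each library.

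Depletion set 1 member apart in epithelial-like cells in both suspensions. Ccl6, the main ligand of alveolar macrophages, had 450 UMIs before and 2 after depletion with vehicle (15.3 and 0.0147 CPM, interval of the log2 ratio -13.08 to -8.16), and 499 and 6 in the libraries labelled tamoxifen (15.7 and 0.0448 CPM, -9.91 to -7.32). Before depletion its epithelial level was 0.268% and 0.286% of the level in alveolar macrophage-like cells, where the median of the alveolar macrophage markers was 0.322% and 0.331%. With vehicle 1 of 9 members was apart (0.358% of all genes) and in the libraries labelled tamoxifen 2 of 10 (0.231%), the second being Cxcl5, higher after depletion (24.9 against 11.7 CPM). Over both suspensions 0.135% of all genes were apart the same way. Cxcl15 differed by a log2 ratio of 0.02 and 0.03 only.

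The UMIs of the leading ligands were spread over many cells, while those of several rarer ones were not. The cell with the most UMIs held 1.17% and 0.967% of the Cxcl15 UMIs of epithelial-like cells before depletion, 0.590% and 0.330% of Ccl6 in alveolar macrophage-like cells, 1.44% and 2.15% of Cxcl2 in neutrophil-like cells and 2.05% and 4.54% of Ccl5 in NK cell-like cells. For Cxcl14 in fibroblast-like cells it held 9.73% and 13%, and for Cxcl12 in endothelial-like cells 7.1% and 7.2%. By contrast 1 cell held 71.6% and 100% of Ccl21a in endothelial-like cells, 98.2% and 47.8% of Ccl1 in NK cell-like cells and 63.7% of Cxcl13 in monocyte- or macrophage-like cells of the library labelled tamoxifen. For such genes the Poisson intervals, which take UMIs as independent, are too narrow.

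**Figure D4:**
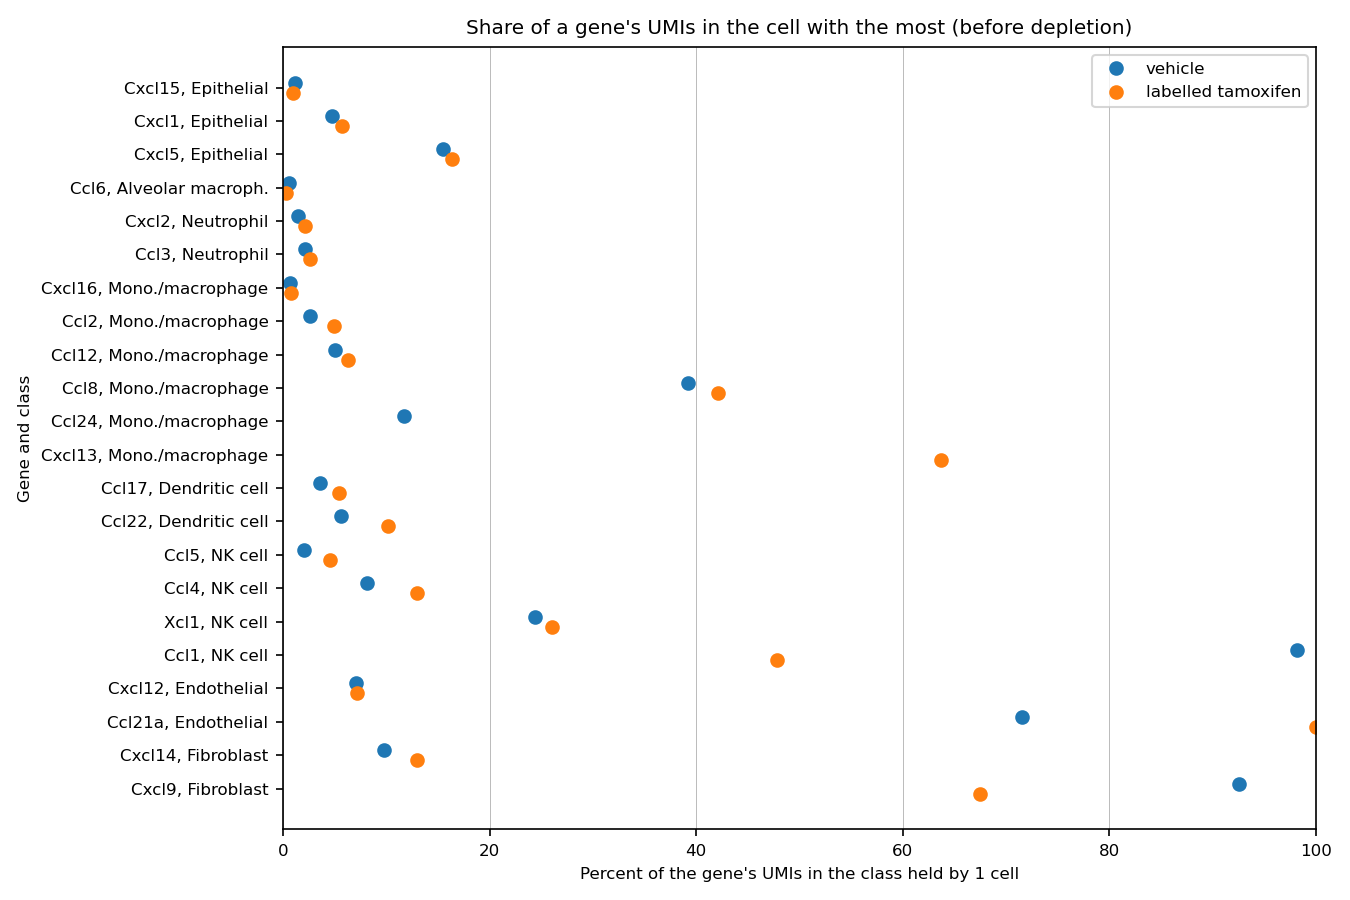
Percent of a gene's UMIs in a class that lie in the 1 cell with the most, for 22 pairs of gene and class before depletion, with the vehicle library and the library labelled tamoxifen in different colours. Cxcl15, Ccl6, Cxcl2 and Ccl5 lie under 5%, while Ccl21a in endothelial cells and Ccl1 in NK cells reach 100% and 98.2%.

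The receptors and 2 further ligands, 25 genes in all, were chosen as the rest of the pathway. Of these 22 reached a source. Cxcr2, the receptor of the ELR ligands, was highest in neutrophil-like cells (851 CPM with vehicle, 785 CPM in the library labelled tamoxifen), as were Ccr1 (1034 and 890 CPM) and the decoy-like receptor Ccrl2 (3909 and 3569 CPM). Cxcl2 and Cxcl3 were thus highest in the class that also had the most RNA of their receptor. Ccr2 stood at 430 and 365 CPM in monocyte- or macrophage-like cells, where its ligands Ccl2, Ccl7 and Ccl12 were also highest, and at 706 and 558 CPM in plasmacytoid dendritic cell-like cells. Cxcr6, the receptor of Cxcl16, was highest in T cell-like cells (262 and 341 CPM), Xcr1 in dendritic cell-like cells (55.9 and 84.7 CPM), and Ackr3, a scavenger of Cxcl12, in endothelial-like cells (491 and 457 CPM). Between treatments none of these receptors was apart in the class given for it here, where that class was compared, but Cxcr2 was lower in dendritic cell-like (6.02 against 21.1 CPM) and B cell-like cells (7.69 against 19.7 CPM) and Ccrl2 in B cell-like cells (33.3 against 114 CPM). Among sub-classes, Ccrl2 was higher in CD4 T cell-like cells (30.7 against 13.8 CPM; 1.97% of all genes apart). Ccr4 was lower in CD8 T cell-like cells (9 UMIs against 36; 2.98%). Ccr6 was higher in the NK cell-like sub-cluster (10 UMIs against 0; 8.27%). Pf4, a platelet CXC ligand whose symbol the rule does not match, was apart in epithelial-like cells in both portions, at 370 against 143 CPM before depletion (log2 ratio 1.37, 1.32 to 1.43) and 378 against 133 CPM after it. By whole class, the listed genes apart were 1 of 1 in epithelial-like cells (1.97% of all genes before depletion), 3 of 13 in dendritic cell-like (1.29%; Cxcr2, Cxcr3 and Pf4), 3 of 9 in B cell-like (5.49%; Cxcr2, Ccrl2 and Pf4) and 1 of 6 in endothelial-like cells (3.04%; Ackr1), and none in alveolar macrophage-, monocyte- or macrophage-, neutrophil- and T cell-like cells.

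Of the 12 genes without a source, 9 had 0 UMIs in every kept cell: both Ccl21b and both Ccl21c entries, Ccl27b, and the scaffold copies of Ccl27a (2 entries), Ccl19 and Ccl21a. For some this may not be measurable, since a read that fits several copies alike cannot be placed on 1 of them: 27.5% of the 811 windows of 60 bases in the transcripts of Ccl21a also occur in Ccl21b, and 7.71% of those of Ccl27a occur in Ccl27b. Conversely, 65.0% of the 343 windows of the chromosome 4 entry of Ccl21b occur in Ccl21a, and 57.7% of the 366 of Ccl27b in Ccl27a. The levels of Ccl21a and Ccl27a are uncertain for the same reason. The other 3, Ccl20, Ccl26 and Ccl28, were under the minimum. With vehicle and before depletion, Ccl20 had 68 UMIs in epithelial-like cells, 61 of them in 1 cell, Ccl28 had 19 and 12 UMIs in the epithelial-like cells before depletion, and Ccl26 had 4 UMIs in the whole vehicle library. The highest level of Cx3cl1 was 20.5 CPM, in dendritic cell-like cells with vehicle, and 34.3 CPM, in fibroblast-like cells of the library labelled tamoxifen. Ccl25 and Ccl27a had more of their UMIs in epithelial-like cells than in any other class. Where NK cell-like cells had their highest CPM (Ccl25 in the library labelled tamoxifen, Ccl27a with vehicle), it rested on 11 and 9 UMIs. Ccl27a, Ccl25, Cxcl16 and Cxcl10 overlap Il11ra1, Elavl1, Zmynd15 and Art3 on the other strand, and 7 further members overlap genes of the other strand. Whether the counting used the strand is not given in the sources used here.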

How the data were processed

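Lung tumour cells were measured with 10x 3′ version 3 chemistry in 4 libraries, 1 per group. The deposited matrices hold UMI counts, raw whole numbers per gene and cell, with no normalization. Cell Ranger 7.0.1 wrote these counts, per the file headers, while the submitters' processing notes name Cell Ranger 7.2.0 and build mm10. The libraries hold 104147479 and 92644997 UMIs before depletion (vehicle, labelled tamoxifen) and 144994771 and 141742060 after it.

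A cell was kept if it had 200 or more genes and no more than 20% of its UMIs from mitochondrial genes. Doublet scores came from Scanpy 1.11.5 (expected rate 0.06), and cells above 0.25 were removed, a threshold which was set after the automatic threshold marked only 188, 1, 1 and 0 cells. At 0.25 the caller removed 225, 120, 116 and 153 cells (vehicle before and after depletion, then labelled tamoxifen before and after). Clustering used 2000 variable genes without the ligand and receptor genes, 40 components, 15 neighbours and resolution 1 (Leiden, igraph 0.11.9). Clusters were named from marker lists, needing 3 detected markers. The naming rules, and the removal of sub-clusters with markers of several classes, were set after the clusters were seen.

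UMIs were summed per class and library and given as CPM. Levels need 50 cells and comparisons 100 cells in both libraries, so NK cells are compared only as a sub-cluster. No p-value was computed. Exact 95% intervals came from SciPy 1.17.1 (Poisson for CPM, conditional binomial for ratios, Clopper-Pearson for shares), and edgeR 4.0.16 gave the scaling factors of 1 alternative. The rule for calling a gene apart was run on simulated counts that held counting error only. With no spread between cells or animals in them, they cannot show how the rule does where few cells hold a gene's UMIs. Alternatives were the pseudocount, the minimum, the scaling, the mean over cells, the fold limit, the cell filter, doublet removal, the resolution, a gate on each cell and, added after the data were seen, keeping mixed sub-clusters, leaving out the low-UMI epithelial cluster and leaving out the cell with the most UMIs of a gene.

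Full values are given for the 3 highest members of each class and for members apart at 50 CPM or more. The members and lists were chosen with earlier results of these data known. Upstream sequences are from RefSeq (GRCm38.p6). Those of the near-identical copies are not printed, because the RefSeq entry named Ccl21b lies elsewhere than the gene of that name in the files. 1 allele of the labelled genotype is not reported here.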

Additional observations from a re-analysis of the deposited data

Results flagged for a closer look

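For 2 members the difference between treatments went opposite ways in different cell classes, and in neither case was the difference between classes tested. Ccl5 was higher in the library labelled tamoxifen in monocyte- or macrophage-like (log2 ratio 1.62), B cell-like (2.99) and T cell-like cells (1.18) and lower in neutrophil-like cells (-1.11). Cxcl3 was higher in alveolar macrophage-like (1.36) and dendritic cell-like cells (1.04) and lower in B cell-like cells (-2.18). Without the cell with the most UMIs, Cxcl3 was at 0.97 in alveolar macrophage-like and -0.21 in B cell-like cells, where 55 of its 68 vehicle UMIs lay in 1 cell, and Ccl5 was at -0.68 in neutrophil-like cells, so neither opposite pair of calls remained. The lower values rest on few UMIs, 44 for Ccl5 in neutrophil-like and 6 for Cxcl3 in B cell-like cells of the library labelled tamoxifen.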

How the results depend on the processing

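No paired analysis was possible because each group has 1 library. Under the alternatives that kept the clusters, or clustered anew, 32 members had a source, 24 with a minimum of 50 CPM, and 25 to 27 had the same leading class in both libraries. In epithelial cells 0 members were apart between treatments under every alternative but 1: a gate on each cell for Epcam or Cdh1 without Ptprc or Pecam1 gave 1, Cxcl14 (log2 ratios -1.13 and -1.47). In other classes 28 calls became 48 with no minimum of CPM or UMIs and 11 with a 4-fold limit. After against before depletion, 1 member became 7 with no minimum, 4 with a minimum of 1000 genes and 4 with mixed sub-clusters kept. The share of all genes apart was computed for the main setting only. Whether these changes in number are particular to the members therefore cannot be told. Of the 28 calls, 28 held with a pseudocount of 0.1 CPM, 26 with edgeR TMM factors, 26 with median of ratios factors, 24 with mixed sub-clusters kept, 21 with no doublets removed, 19 with a minimum of 1000 genes, 16 as a mean over cells and 16 without the cell with the most UMIs. Ccl24 in monocyte- or macrophage-like cells ranged from -5.66 to -4.58, Cxcl13 from 3.40 to 4.18 and Cxcl10 in neutrophil-like cells from -1.67 to -1.14, apart under all 8 alternatives. In alveolar macrophage-like cells Ccl24 fell below the minimum of 10 CPM with both scalings. Direction turned in 11 cases. With a minimum of 1000 genes these were Cxcl3 in alveolar macrophage-like (-0.26) and dendritic cell-like cells (-2.16), Cxcl1 (0.47) and Cxcl9 (-0.48) in dendritic cell-like cells, Ccl5 in neutrophil-like (0.14) and Ccl1 in T cell-like cells (0.47). With no doublets removed they were Ccl5 in neutrophil-like (0.26) and Cxcl3 (0.025) and Cxcl15 (0.76) in B cell-like cells. With mixed sub-clusters kept it was Ccl17 in T cell-like cells (0.66), and without the top cell Cxcl9 in endothelial-like cells (-1.08). With a minimum of 1000 genes the dendritic cell-like class had no Cd209a sub-cluster and so did not hold the same cells. The cause of the 11 turns was not tested. Fibroblast-, NK cell-, endothelial-, plasma cell- and plasmacytoid dendritic cell-like cells had under 150 cells in each library before depletion, which limits the precision of their levels.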
